A study of Mus musculus with 20 samples.

Results

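Cycling T cells were read from single-cell RNA-sequencing (scRNA-seq) of the spleens and lymph nodes of transgenic mice from a study of B cell leukaemia. Droplet barcodes were kept with 1500 or more unique molecular identifiers (UMIs, 1 per captured RNA molecule), 200 or more genes and no more than 10% of UMIs from mitochondrial genes. A T cell had at least 2 UMIs of Cd3d, Cd3e and Cd3g together, 0 of the B cell receptor genes Cd79a and Cd79b, and at most 2 of Ighm. A T cell was called cycling when at least 2 of the 5 cell division genes Mki67, Top2a, Birc5, Ccna2 and Cdk1 had a UMI. Members were thus chosen by their own measured UMIs of these genes, and what the rule read is given as a description with no test. By this rule 848 of 31963 T cells were cycling, among 97181 kept barcodes of all kinds. Of the other T cells, 29267 had none of the 5 genes and are called negative T cells here, and 1848 had 1 of the 5.

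The 20 libraries held unselected live cells of 13 mice of both sexes, taken when disease met the criteria for euthanasia. The labels give their strain as C57BL/6N, while the study's methods name C57BL/6J for the background of the cross. Eµ-PRMT5 mice gave 5 spleens, Eµ-TCL1 mice gave 4 spleens with 3 lymph nodes, and the double transgenic Eµ-PRMT5/TCL1 mice gave 4 spleens with 4 lymph nodes, so that 7 mice gave both tissues. Eµ-PRMT5 mice carry a human PRMT5 cDNA and Eµ-TCL1 mice a human TCL1 cDNA, each driven by an immunoglobulin heavy chain variable region promoter with the Eµ enhancer, which directs expression to B cells. Eµ-PRMT5/TCL1 mice carry both and come from a cross of Eµ-PRMT5 with homozygous Eµ-TCL1 mice, and Eµ-PRMT5 mice descend from several founders. The transgenes are therefore not directed to be expressed in the T cells described here, and no library of a mouse without a transgene was analysed here. The study reports that T cells, B cells, leukaemia-like B cells or myeloid cells expanded in the blood of Eµ-PRMT5 and Eµ-TCL1 mice, in varying ratios. For Eµ-PRMT5/TCL1 mice it describes leukaemic cells that appeared to take the place of other blood cells, T cells among them. The nodes were sub-mandibular. Libraries go by group and replicate number. Equal numbers mark the same mouse only for the spleens and nodes numbered 1 and 2 of Eµ-TCL1 and those numbered 3 of Eµ-PRMT5/TCL1 mice.

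A resting T cell enters the cell cycle after its receptor meets antigen with co-stimulation. Cyclin-dependent kinases then release E2F factors, which switch on genes of DNA synthesis in S phase, and a later set of genes, including Cdk1, Ccnb2 and Aurkb, drives G2 and mitosis. Dividing T cells take up more sugar, make nucleotides, and lower the genes that keep naive cells at rest and in circulation, such as Il7r, Ccr7 and Klf2. Both helper (Cd4) and cytotoxic (Cd8) T cells can expand in this way in lymphoid organs that hold a leukaemia.

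Libraries held between 9348094 and 72440894 UMIs and between 784 and 8631 kept barcodes. Cycling T cells were deeper than negative T cells in every library with at least 20 of them, of which there were 10: library medians ran from 6248 to 14940 UMIs a cell against 2605 to 5638, and the ratio within a library from 1.68 to 5.4. Because a deeper cell shows more genes, shares compared between libraries were read after each cell was thinned at random to 1500 UMIs, and the shares under the rule itself are printed beside them. In free RNA, read from barcodes of 10 to 100 UMIs, the 5 genes made up 80.3 to 798 counts per 1000000 UMIs (CPM) over the 20 libraries, with the highest value in Eµ-PRMT5 spleen 4. In the cycling T cells of the 10 libraries they made up 1090.5 to 2127 CPM. Barcodes found in more than 1 library numbered 6037 over 190 pairs of libraries, where 6043 were expected from the library sizes. Scrublet's automatic threshold marked 3.93% of barcodes as doublets in Eµ-PRMT5/TCL1 lymph node 4, 3.76% in Eµ-TCL1 spleen 1, 1.27% in Eµ-TCL1 spleen 2, 1.24% in Eµ-PRMT5 spleen 4 and at most 0.394% in each of the others, so the barcodes with the top scores were left out as a second check, which concerned 51 of the 848 cycling T cells.

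The label was checked against marker genes. The rule itself asked for Cd3d, Cd3e and Cd3g. Of the T cell markers it did not read, Trac, Trbc1, Trbc2, Cd2, Lat, Thy1 and Lck were each above 0 in the cycling T cells of all 10 libraries. The kinase Lck ran from 357 to 1335 CPM with a median of 515 CPM, against 329 to 937 CPM with a median of 399 CPM in negative T cells, and Trac, the constant part of the receptor's alpha chain, from 79.4 to 204 CPM against 75.2 to 185 CPM. The platelet list ran from 0 to 1.19 CPM, the dendritic cell list from 0 to 10.3 CPM and the red cell list from 0 to 39.7 CPM over the cycling T cells of the 10 libraries. The natural killer (NK) cell list ran from 2.78 to 105 CPM (median 35.7), against 1.35 to 95.1 CPM (median 39.3) in negative T cells. The plasma cell list ran from 58.0 to 216 CPM (median 125), against 98.7 to 394 CPM (median 141). The monocyte and macrophage list ran from 0 to 3261 CPM with a median of 320 CPM, against 10.8 to 980 CPM with a median of 179 CPM in negative T cells. Most of it was Lyz2 (0 to 3099 CPM), which was at 0 in 2 libraries, while Cd68 was at 0 in 1, Csf1r in 4, C1qb in 6 and C1qa in all 10. The B cell list ran from 94.3 to 2561 CPM with a median of 399 CPM, against 83.6 to 1195 CPM with a median of 195 CPM, and most of it was the class II chain Cd74. The neutrophil and precursor list (S100a8, S100a9, Camp, Ngp, Ltf, Mpo and Elane) did not stay near 0: it ran from 0 to 28899 CPM with a median of 6571 CPM over libraries, against 0.122 to 6262 CPM with a median of 829.1 CPM in negative T cells. Cells above a limit of neutrophil, monocyte/macrophage, B cell or red cell marker UMIs numbered 76 of 848 cycling T cells (8.96%) and 273 of 29267 negative T cells (0.933%). Of the 76, 64 were above the limit for monocyte and macrophage, 43 for neutrophil, 6 for red cell and 4 for B cell markers, some of them for more than 1. No limit was set for NK or plasma cell markers. They included 11 of 16 cycling T cells in Eµ-TCL1 spleen 3, 18 of 88 in Eµ-PRMT5/TCL1 spleen 2, 11 of 56 in Eµ-PRMT5/TCL1 spleen 3 and 10 of 91 in Eµ-TCL1 spleen 1, with the rest spread over other libraries. Whether these barcodes held a T cell and a second cell was not tested. Group means, the cycling shares of Cd4 and Cd8 cells and the counts of gene lists outside the cell cycle are given with and without them. Nodes against spleens of the same mice and the Cd8 share of cycling T cells are given with them only. The shares by receptor V gene and the relation with B cell shares were computed with them only. Genes of immature T cells (Rag1, Rag2, Dntt or Ptcra) had a UMI in 19 cycling T cells. Of these 13 were among the 26 of Eµ-PRMT5/TCL1 spleen 1 and 5 among the 19 of Eµ-PRMT5/TCL1 lymph node 2, from the same mouse. They had a UMI in 31 of the 29267 negative T cells, of which 17 were among the 138 of Eµ-PRMT5/TCL1 spleen 1. Cycling shares were not computed without the cells that had such a UMI.

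Most cycling T cells showed more genes than the rule asked for. All 5 genes were seen in 370 cells, 4 in 194, 3 in 128 and only the required 2 in 156. Across these cells the summed level of the S phase and DNA replication list went up with the number of genes seen as far as 4 genes, as it must in part, since both read the same cells: it was 947 CPM at 0 genes, 1190 CPM at 1, 2681 CPM at 2, 5068 CPM at 3, 5631 CPM at 4 and 5589 CPM at 5. The G2 and mitosis list was at 727 CPM at 0 genes, 818 CPM just outside the rule at 1, 1779 CPM just inside it at 2, 3780 CPM at 3, 5324 CPM at 4 and 6674 CPM at 5. In these pooled sums cells with 1 gene were thus close to negative T cells on both lists, and cells with 2 lay between them and the rest. Libraries differed in this. After thinning, cells with 1 gene held 5.57 S phase UMIs against 1.64 in negative T cells of Eµ-PRMT5/TCL1 spleen 1. The values were 3.96 against 2.57 in Eµ-PRMT5/TCL1 spleen 4, and 1.33 against 1.56 in Eµ-TCL1 lymph node 2.

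In spleens the double transgenic mice had the highest mean share of cycling T cells, and the spread between mice was wide. Read at 1500 UMIs a cell, 8.99% of T cells were cycling in Eµ-PRMT5/TCL1 spleen 1, 3.15% in spleen 2, 1.27% in spleen 3 and 8.48% in spleen 4. Eµ-TCL1 spleens 1 to 4 had 2.73%, 0.252%, 0.434% and 0.285%. Eµ-PRMT5 spleens 1 to 5 had 0.595%, 0%, 0.193%, 6.72% and 1.66%. The lowest double transgenic spleen lay below the highest Eµ-TCL1 and Eµ-PRMT5 spleens, so the groups overlapped. The 0% of Eµ-PRMT5 spleen 2 was 0 of 452 T cells, which allows a share of up to 0.664%.

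The group means were 5.47% ± 3.85 (SD, n = 4) in Eµ-PRMT5/TCL1, 0.925% ± 1.21 (n = 4) in Eµ-TCL1 and 1.83% ± 2.81 (n = 5) in Eµ-PRMT5 spleens. Eµ-PRMT5/TCL1 spleens were 4.55 percentage points above Eµ-TCL1 spleens (exact two-sided permutation test, p = 0.0571) and 3.64 points above Eµ-PRMT5 spleens (exact permutation p = 0.159), and neither difference passed 0.05, before or after adjustment over the 5 group comparisons (Benjamini-Hochberg, adjusted p = 0.130 and 0.198). Eµ-PRMT5 spleens were 0.910 points above Eµ-TCL1 spleens (exact permutation p = 0.722), and 0.312 points below them without Eµ-PRMT5 spleen 4. Without cells above the limit for other lineages, the means were 5.32% ± 3.96, 0.80% ± 1.24 and 1.70% ± 2.62. Under the rule with all UMIs they were 8.92% ± 5.13, 1.62% ± 2.01 and 4.34% ± 7.07, with the highest library at 16.8% (20 of 119 T cells, Eµ-PRMT5 spleen 4) and the lowest at 0.221% (1 of 452, Eµ-PRMT5 spleen 2).

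Within a genotype lymph nodes held lower mean shares than spleens, and the nodes of the 2 genotypes did not overlap, although their difference did not pass after thinning. After thinning, 2%, 0.698%, 1.21% and 1.98% of T cells were cycling in Eµ-PRMT5/TCL1 lymph nodes 1 to 4, and 0.646%, 0.201% and 0.517% in Eµ-TCL1 lymph nodes 1 to 3. Every double transgenic node was above every Eµ-TCL1 node, although the 2% of Eµ-PRMT5/TCL1 lymph node 1 rests on 2 of 100 T cells. The closest nodes were Eµ-PRMT5/TCL1 lymph node 2 (8 of 1146 T cells) and Eµ-TCL1 lymph node 1 (19 of 2940). The means were 1.47% ± 0.632 (n = 4) and 0.455% ± 0.229 (n = 3), a difference of 1.02 points, and the exact permutation test gave p = 0.0571 (adjusted p = 0.130). Leaving out cells above the limit for other lineages gave 1.47% ± 0.623 and 0.446% ± 0.217. With all UMIs the shares were 2%, 1.66%, 2.40% and 2.77% against 1.39%, 0.402% and 0.906%, and again did not overlap (exact permutation p = 0.0286, the smallest that 4 against 3 nodes can give, not adjusted).

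In the 7 mice with both tissues the node held a lower share of cycling T cells than the spleen in 6, with a mean of 1.04% ± 0.716 in nodes and 3.59% ± 3.68 in spleens. The mean difference was −2.56 points after thinning (exact sign-flip test over mice, p = 0.0781, adjusted p = 0.130) and −4.24 points with all UMIs (exact sign-flip p = 0.0469, not adjusted). The p-values here measure the spread between mice.

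**Figure D1:**
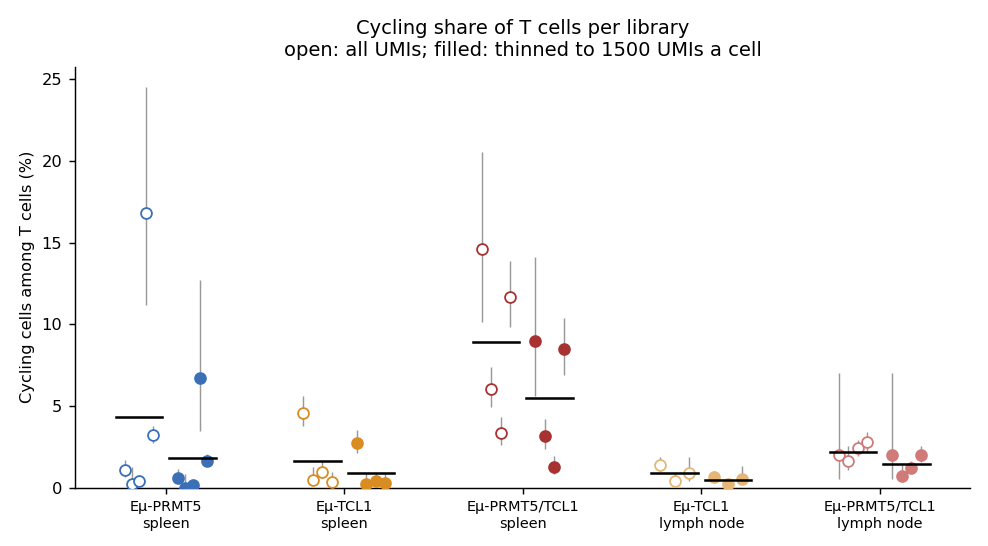
Share of T cells that were cycling (y axis, percent) in each library, by group (x axis). Open points use all UMIs and filled points cells thinned to 1500 UMIs, grey bars are 95% Wilson intervals (counting error only) and black lines are group means. Eµ-PRMT5 spleen 4 (16.8% with all UMIs) and Eµ-TCL1 spleen 1 (4.60%) stand above the other libraries of their groups, and the Eµ-PRMT5/TCL1 nodes lie above the Eµ-TCL1 nodes on both readings.

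The share of cycling B cells was read in the same way, from barcodes with at least 2 UMIs of Cd79a and Cd79b and 0 of the Cd3 genes. It averaged 4.37% in Eµ-PRMT5/TCL1, 2.98% in Eµ-TCL1 and 5.02% in Eµ-PRMT5 spleens after thinning. Across the 13 spleens, 1 per mouse, T and B cell shares went together by rank (Spearman's rho = 0.769, permutation p = 0.00325, adjusted p = 0.00975 over 3 settings) and on the linear scale did not pass after adjustment (Pearson's r = 0.579, permutation p = 0.0437, adjusted p = 0.0656). With all UMIs r was 0.737 (permutation p = 0.00323, adjusted p = 0.00969) and rho 0.720 (permutation p = 0.00793, adjusted p = 0.0119). Without the 2 spleens farthest from the median B cell share, after thinning, r was 0.343 (permutation p = 0.247) and rho 0.709 (permutation p = 0.0179), so the thinned linear relation rests on those 2 spleens. Eµ-PRMT5 spleen 4 had the highest B cell share, 23.7%, and the third highest T cell share. Both shares come from the same library, so its depth and free RNA are shared between them.

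A cell was called Cd8 with at least 1 UMI of Cd8a or Cd8b1 and 0 of Cd4, and Cd4 with the reverse. The same limit put on B cells called 204 of 3075 Cd8 and 0 Cd4 in Eµ-PRMT5/TCL1 lymph node 2, and 1 of 257 Cd8 and 0 Cd4 in Eµ-TCL1 lymph node 1. The part of such background in the calls of T cells was not tested. Among cycling T cells 58.1% were Cd8, 22.6% (192 cells) Cd4, 5.66% (48) had UMIs of both and 13.6% (115) of neither, against 75.2% Cd8, 6.65% Cd4, 0.776% both and 17.3% neither of the negative T cells. These pooled numbers weight libraries by their cells and are a description.

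In lymph nodes a larger part of Cd4 than of Cd8 T cells was cycling in all 6 nodes with at least 20 cells of each. The cycling share in Eµ-TCL1 lymph node 1 was 8.06% of Cd4 cells (17 of 211) and 0.757% of Cd8 cells (19 of 2509), and in Eµ-TCL1 lymph node 2 it was 2.94% (1 of 34) and 0.148% (2 of 1347). Eµ-PRMT5/TCL1 lymph nodes 1 to 4 had 3.85%, 2.63%, 21.1% and 8.42% of Cd4 cells cycling and 2.04%, 1.09%, 1.83% and 2.24% of Cd8 cells. In the first 2 of these and in Eµ-TCL1 lymph node 2 the Cd4 share was 1 cell, and in Eµ-PRMT5/TCL1 lymph node 3 it was 20 of 95. The mean difference, Cd8 minus Cd4, was −6.47 points (7.82% ± 6.96 of Cd4 and 1.35% ± 0.821 of Cd8 cells, n = 6, exact sign-flip p = 0.03125, the smallest that 6 libraries can give).

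The median Cd4 cell had more UMIs than the median Cd8 cell in 2 of the 6 nodes, with library medians of 2959 to 5686 UMIs for Cd4 and 2824 to 5766 UMIs for Cd8 cells. With cells thinned to 1500 UMIs, classes and cycling both read after thinning, the difference was −2.29 points over the 4 nodes that still had 20 cells of each class (exact sign-flip p = 0.25, where 4 nodes cannot go below 0.125), with 5.62% of Cd4 and 0.367% of Cd8 cells in Eµ-TCL1 lymph node 1, 0% and 0.377% in Eµ-PRMT5/TCL1 lymph node 2, 4.55% and 0.914% in lymph node 3, and 2.61% and 1.94% in lymph node 4. At least 3 genes in place of 2 gave −5.24 points over the 6 nodes (exact sign-flip p = 0.0625). Leaving out Scrublet's doublets gave −5.86 points and leaving out the top scores −6.08 points (both exact sign-flip p = 0.09375), and Eµ-PRMT5/TCL1 lymph node 1 then kept 0 cycling Cd4 cells and 1 cycling Cd8 cell. The call was thus lost in these 3 settings, and without other-lineage cells it was not (−6.44 points, exact sign-flip p = 0.03125).

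In spleens no direction held. Of the 10 spleens with at least 20 cells of each class, the Cd4 share was higher in 7 and the Cd8 share in 3. The Cd4 share was far above the Cd8 share in Eµ-TCL1 spleen 1 (8.12% against 2.17%) and in Eµ-PRMT5/TCL1 spleens 2 (15.2% against 3.75%), 3 (13.5% against 2.93%) and 4 (18.6% against 11%). It was below it in Eµ-PRMT5 spleen 4 (4.55% against 22.2%), Eµ-PRMT5/TCL1 spleen 1 (8% against 16.5%) and Eµ-TCL1 spleen 3 (0 of 22, which allows up to 13.6%, against 0.938%). The last value is 14 Cd8 cells, of which 4 were left without other-lineage cells. The mean difference, Cd8 minus Cd4, was −1.18 points (exact sign-flip p = 0.674), and −0.774 points without other-lineage cells. With 1 spleen left out it ran from −3.27 points without Eµ-PRMT5 spleen 4 (exact sign-flip p = 0.156) to −0.0398 points without Eµ-PRMT5/TCL1 spleen 2. Cd4 cells were the deeper class in 2 of the 10.

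**Figure D2:**
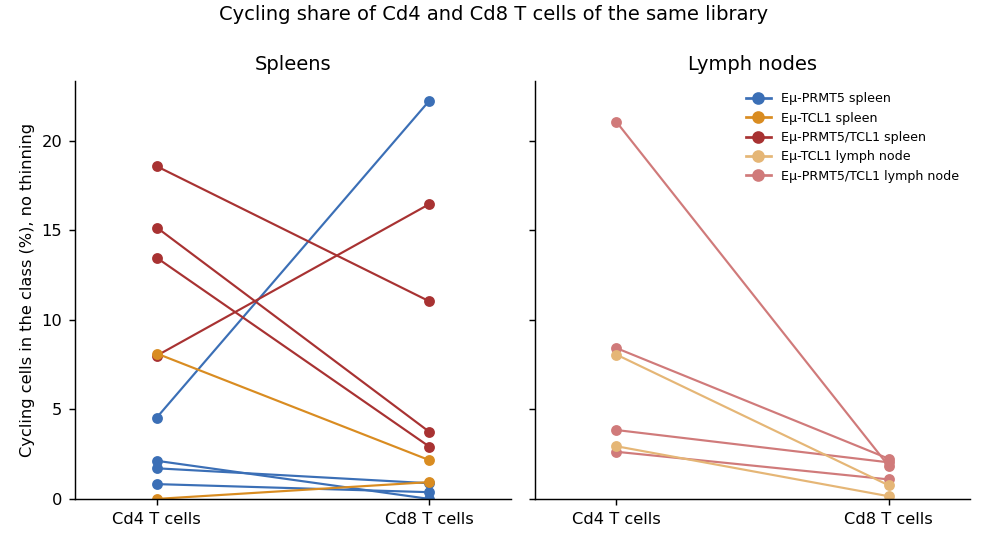
Share of cycling cells (y axis, percent, all UMIs) among the Cd4 and the Cd8 T cells of the same library, joined by a line, in spleens (left) and lymph nodes (right). All 6 lines fall from Cd4 to Cd8 in nodes, while 3 of 10 rise in spleens, the steepest of them Eµ-PRMT5 spleen 4 (4.55% to 22.2%).

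The Cd8 share of cycling T cells varied between libraries, and so did that of the negative T cells beside them. Among T cells assigned to either class, Cd8 cells were 24.3% of cycling and 57.3% of negative cells in Eµ-TCL1 spleen 1, and 97.9% and 99.8% in Eµ-PRMT5 spleen 5. In Eµ-PRMT5/TCL1 spleens 2 to 4 they were 53.8%, 85.4% and 72.3% of cycling against 86.7%, 97.2% and 84.02% of negative cells. The nodes had 52.8% against 93.5% (Eµ-TCL1 lymph node 1), 73.7% against 97.8% (Eµ-PRMT5/TCL1 lymph node 3) and 73.3% against 92.4% (lymph node 4). These are the libraries with at least 20 assigned cycling cells, and with all UMIs the cycling cells had the lower Cd8 share in each of them. Cycling cells were deeper, so a single UMI of a class gene was more easily seen in them. With class and cycling read after thinning, the Cd8 share of cycling cells was 61.5% of 13 assigned cells in Eµ-TCL1 lymph node 1. T cells with none of the 5 genes after thinning had 96.4% there. In Eµ-PRMT5/TCL1 lymph node 3 the thinned share of cycling cells was 90.5% of 21 assigned cells, so the size of the gap depends on the reading. The direction of the gap after thinning is not given for the other libraries. The groups could not be compared on this share: 3 of the 4 contrasts had 1 library on 1 side and the fourth had 3 mice, so that no exact permutation or sign-flip p could go below 0.25.

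Cells that share a T cell receptor V gene need not be a clone, but a V gene that fills most of a library's T cells points to the same kind of receptor. The Trbv gene with the most UMIs summed over the T cells of each library was taken as its leading gene. Cycling shares of T cells with and without that gene are given with no test, since cells of 1 library are not replicates, and near-identical copies such as Trbv12-1 and Trbv12-2, or the Trbv13 genes, may share reads.

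Eµ-PRMT5 spleen 5 held 4568 T cells among 5977 kept barcodes, and 148 of the 848 cycling T cells. Its leading gene Trbv12-1 was seen in 96.4% of T cells with a Trbv UMI. Of the cells with it 135 of 3934 were cycling (3.43%), against 5 of 147 without it (3.40%). The cells with Trbv12-1 were almost all Cd8 (3655 Cd8 and 3 Cd4). In Eµ-TCL1 spleen 1 Trbv17 was seen in 49.0% of such T cells, which were mainly Cd4 (565 Cd4 and 54 Cd8), and 60 of 918 were cycling (6.54%) against 30 of 956 with another gene (3.14%). The node of the same mouse, Eµ-TCL1 lymph node 1, also had Trbv17 as its leading gene, in 13.5% of T cells, with 17 of 374 cycling (4.55%) against 23 of 2406 (0.956%). With the cycling call thinned, and Trbv still read from all UMIs, the shares were 4.03% against 1.67% in that spleen and 2.14% against 0.457% in that node. Cells with Trbv17 were thus the more often cycling in both tissues of this mouse. In that node they were 159 Cd4 and 141 Cd8, against 45 Cd4 and 2245 Cd8 with another gene. In that spleen the cells with another gene were 81 Cd4 and 682 Cd8. Cycling by Trbv17 within 1 class was not tested.

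The leading gene did not mark the cycling cells everywhere. Over the 10 libraries with at least 20 cycling T cells its cells had the higher share in 6 and the lower in 4. In Eµ-PRMT5/TCL1 spleen 4, 38 of 192 cells with Trbv13-2 were cycling (19.8%) against 73 of 698 (10.5%). In Eµ-PRMT5/TCL1 spleen 1, 1 of 32 cells with Trbv16 was cycling (3.13%) against 24 of 117 (20.5%). In the mouse of Eµ-PRMT5/TCL1 spleen 3 and lymph node 3, cells with Trbv12-2 had 1.97% cycling against 4.13% in spleen and 1.92% against 3.00% in node. In 5 of the 7 mice with both tissues, spleen and node had the same leading gene.

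**Figure D3:**
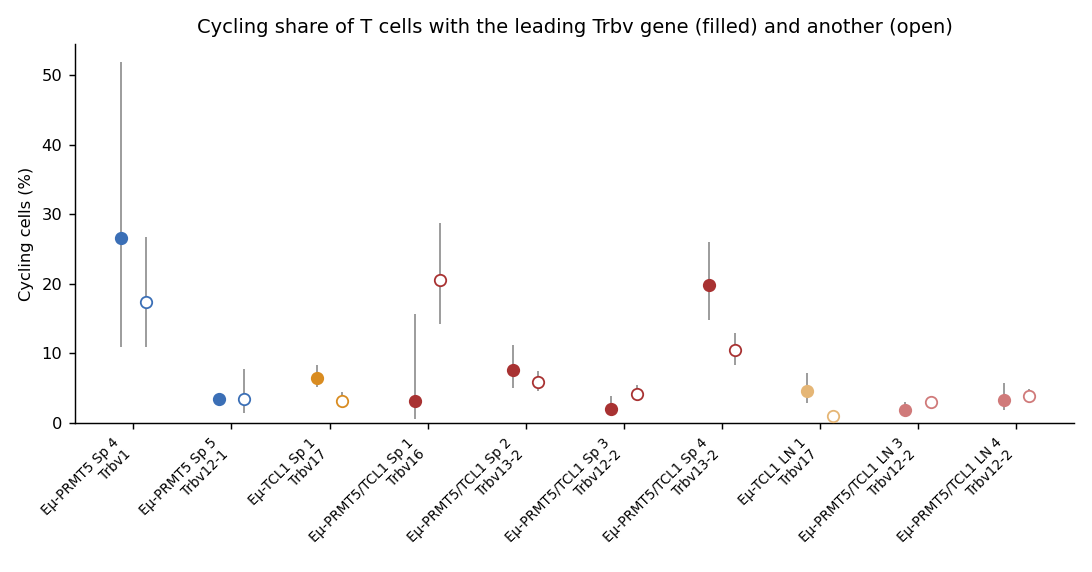
Share of cycling cells (y axis, percent, all UMIs, with 95% Wilson intervals) among T cells with the library's leading Trbv gene (filled) and with another Trbv gene (open), for the 10 libraries with at least 20 cycling T cells (x axis, with the gene). Trbv17 cells lie above the others in both tissues of the Eµ-TCL1 mouse, and the shares nearly coincide in Eµ-PRMT5 spleen 5 (3.43% and 3.40%).

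Genes of cycling T cells were read from UMIs summed over the cycling and over the negative T cells of each library, in the 7 spleens and 3 nodes with at least 20 cycling T cells. The cell cycle lists follow from the rule and are a description. All 38 S phase and DNA replication genes, all 49 G2 and mitosis genes and all 26 histone, chromatin and tubulin genes had higher fitted levels in cycling T cells in both tissues, with median log2 differences of 2.97, 4.79 and 2.94 in spleens and 2.98, 5.50 and 3.26 in nodes. Of S phase genes the most abundant were Dut and Rrm2, which supply DNA building blocks, Slbp, which binds histone mRNA, and the replication clamp Pcna. Rrm2 had a median of 252 CPM in cycling and 3.71 CPM in negative T cells of spleens, and 280 and 2.07 CPM in nodes. Of G2 and mitosis genes they were the ubiquitin enzymes Ube2s and Ube2c, the condensin subunit Smc4 and the centromere histone Cenpa, and Ube2c had 377 and 7.46 CPM in spleens and 548 and 2.29 CPM in nodes. Of the third list they were H2afz, Hmgb2, Tuba1b and Hist1h2ap, a histone gene whose near-identical copies may share reads.

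Of the 5 genes of the rule, Mki67 ran from 125 to 378 CPM with a median of 306 CPM over the cycling T cells of 7 spleens, and was 585, 313 and 375 CPM in the nodes Eµ-TCL1 1, Eµ-PRMT5/TCL1 3 and Eµ-PRMT5/TCL1 4. Cdk1 ran from 110 to 284 CPM with a median of 132 CPM in spleens, and was 201, 115 and 163 CPM in the same nodes. All were 0 in negative T cells by construction. After thinning, cycling T cells held 5.10 to 12.0 UMIs of the S phase list and 5.86 to 11.7 UMIs of the G2 and mitosis list per cell over the 10 libraries, and G2 and mitosis UMIs outnumbered S phase UMIs in 5 of them, most in Eµ-TCL1 lymph node 1 (11.7 against 5.51).

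Many of these genes have short promoter motifs in common, which the rule did not use. A CHR, searched as TTTGAA on either strand, lay in 30 of 44 promoters of G2 and mitosis genes (68.2%, for 41 of 49 genes matched) against 17.9% of all 32851 promoters of RefSeq (GRCm38.p6, 250 bases before to 50 after the start). A CCAAT box, searched as CCAAT on either strand, lay in 75.0% against 37.4%, and both in 59.1% against 6.95%. An E2F motif, searched as TTTCCCGC or TTTGGCGC on either strand, lay in 8 of 33 S phase promoters (24.2%, for 28 of 38 genes) against 1.56% of all and 4.55% of G2 and mitosis promoters. The promoters of the naive and quiescence genes described below held a CHR in 7.41%, a CCAAT box in 37.0% and no E2F motif. A match is a description and not a binding site. The windows below, from 150 bases before to 30 bases after the RefSeq start and written along the gene's strand, show the motifs in capitals in Cdk1, which the rule read, in the cyclin Ccnb2, and in Pclaf, a partner of the replication clamp.
Cdk1, chr10:69352883-69353062, minus strand: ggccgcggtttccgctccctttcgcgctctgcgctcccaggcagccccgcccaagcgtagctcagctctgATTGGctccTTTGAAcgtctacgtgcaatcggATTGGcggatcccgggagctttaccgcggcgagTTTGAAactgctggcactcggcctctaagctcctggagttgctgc
Ccnb2, chr9:70421525-70421704, minus strand: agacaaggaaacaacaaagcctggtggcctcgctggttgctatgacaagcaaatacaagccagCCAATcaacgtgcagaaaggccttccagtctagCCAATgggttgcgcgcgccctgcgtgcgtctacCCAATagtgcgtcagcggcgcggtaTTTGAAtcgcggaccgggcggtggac
Pclaf, chr9:65890173-65890352, plus strand: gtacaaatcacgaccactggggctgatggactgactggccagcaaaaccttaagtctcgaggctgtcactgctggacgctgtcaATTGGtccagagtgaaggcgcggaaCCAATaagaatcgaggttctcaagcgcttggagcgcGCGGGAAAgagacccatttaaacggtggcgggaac
Cdk1 held a CHR at −71 and at −15 from the start and a CCAAT box, on the opposite strand (ATTGG), at −80 and −48. Ccnb2 held CCAAT at −87, −54 and −21 and a CHR at 5. Pclaf held CCAAT at −41 and, on the opposite strand, at −66, and an E2F motif on the opposite strand (GCGGGAAA) at −5. In the cycling T cells Pclaf averaged 463 CPM in spleens and 436 CPM in nodes, against 2.77 and 1.03 CPM in negative T cells.

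The genes that rose most in both tissues by the rule for naming genes were of this kind (Esco2, Cenpf, Ska1, Pclaf, Ccnb2, Knl1, Aurkb and Ckap2l), with log2 differences of 6.35 to 7.64 in spleens and 7.55 to 8.88 in nodes. Leaving out the 11 genes the rule used, 3405 of 9430 genes tested differed between cycling and negative T cells in spleens (36.1%; edgeR quasi-likelihood test with the library as a block, adjusted p under 0.05 by Benjamini-Hochberg), 1673 higher (17.7%) and 1732 lower (18.4%). In nodes 2702 of 10502 differed (25.7%), 1425 higher (13.6%) and 1277 lower (12.2%). Called in both tissues were 1984 of the 9214 genes tested in both (21.5%), 1059 up and 925 down, and 0 with opposite signs. The node count was 1058 without Eµ-PRMT5/TCL1 lymph node 4 and 1647 without lymph node 3. The median log2 difference over all genes was −0.07 in spleens and −0.09 in nodes. Without cells above the limit for other lineages, 6 spleens gave 1622 higher (18%) and 1481 lower (16.4%) of 9029, and the nodes 1436 (13.8%) and 1323 (12.7%) of 10387. Eµ-PRMT5 spleen 4 then had fewer than 20 cycling T cells and was not in that fit. DESeq2 split the node calls differently, with 1226 higher and 664 lower. In summed cells, fewer cells of a state and less RNA per cell cannot be told apart.

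Genes of naive and resting T cells fell nearly as a block. All 17 members tested in spleens were lower in cycling T cells, with a median log2 difference of −0.86, and 17 of 19 were lower in nodes, with a median of −1.0 and 2 that did not pass, where 18.4% and 12.2% of all genes fell. Without other-lineage cells 16 of 17 and 17 of 19 were lower, with thinned counts 16 of 17 and 12 of 19, and in Cd8 T cells alone, in 4 spleens and 2 nodes, 16 of 17 and 12 of 19. Without the library as a block 6 fell in spleens and 14 in nodes, and with 1 library left out 15 to 17 fell in spleens and 9 to 16 in nodes.

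Ccr7, the chemokine receptor that brings T cells to lymph nodes, ran from 13.9 to 1082 CPM with a median of 59.5 CPM in cycling T cells of the 7 spleens, and from 23.3 to 1406 CPM with a median of 557 CPM in negative T cells. It was 106 against 409 CPM in Eµ-TCL1 lymph node 1, and 224 against 773 CPM and 77.6 against 639 CPM in Eµ-PRMT5/TCL1 lymph nodes 3 and 4. Cycling T cells were lower in all 10 libraries, though the spleens overlapped, since Eµ-PRMT5 spleen 5 was high in both states (1082 against 1406 CPM) and Eµ-PRMT5 spleen 4 low in both (13.9 against 23.3 CPM). The log2 difference was −2.68 ± 0.323 (SE) in spleens (adjusted p = 1.71e-05) and −2.52 ± 0.205 in nodes (adjusted p = 2.26e-07).

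Il7r, the receptor for the survival cytokine IL-7, was lower in all 10 libraries as well. Its CPM ran from 4.96 to 100.2 with a median of 23.5 in cycling and from 86.5 to 229 with a median of 168 in negative T cells of spleens, where only 1 cycling value exceeded the lowest negative value. In nodes it was 155 against 548, 55.8 against 143 and 24.3 against 135 CPM. The log2 differences were −2.32 ± 0.325 (adjusted p = 7.79e-05) and −2.10 ± 0.195 (adjusted p = 9.98e-07). Satb1, a chromatin organiser of T cells, fell by 1.82 and 1.83 on the log2 scale in spleens and nodes, and the survival gene Bcl2 by 1.70 and 1.86. Klk8, a secreted protease, fell by 1.94 and 2.50. The log2 differences were −1.75 and −1.76 for Neurl3, −1.87 and −2.51 for Tcp11l2, and −2.15 and −1.54 for Cd163l1, a scavenger receptor. Igfbp4, which binds insulin-like growth factors and marks naive T cells, was tested in nodes, where it fell by 3.80.

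**Figure D4:**
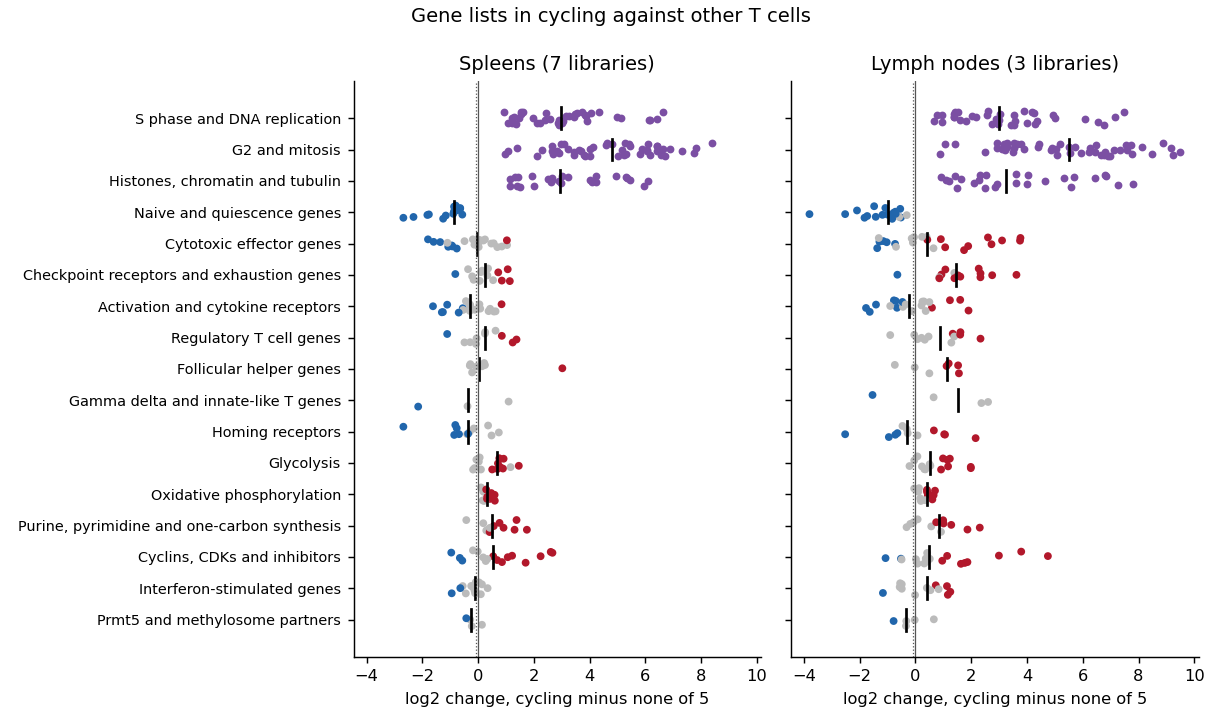
Log2 difference between cycling and negative T cells (x axis, edgeR) for each tested member of 17 gene lists (rows), in spleens (left) and lymph nodes (right). Red points rose and blue points fell at adjusted p under 0.05, grey points did not pass, purple points belong to the cell cycle lists and carry no test, black bars are list medians and the dotted line is the median of all genes. The naive and quiescence list lies left of 0 in both tissues (medians −0.86 and −1.0), and the checkpoint list moves right in nodes (0.24 in spleens and 1.46 in nodes).

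More effector and checkpoint genes passed upward in nodes than in spleens when all T cells were summed. Of 23 cytotoxic effector genes 10 rose and 5 fell in nodes, with a median log2 difference of 0.40, while in spleens 1 rose and 7 fell with a median of −0.06. Of all genes 13.6% rose and 12.2% fell in nodes, and 17.7% rose and 18.4% fell in spleens. Of 14 checkpoint and exhaustion genes tested in each tissue 11 rose and 1 fell in nodes (median 1.46) and 4 rose and 1 fell in spleens (median 0.24). Without other-lineage cells, a fit that also lost Eµ-PRMT5 spleen 4, the cytotoxic counts in spleens were 4 up and 6 down of 23. In nodes they did not change, and the checkpoint counts changed in neither tissue. With 1 library left out 0 to 4 cytotoxic genes rose in spleens and 7 to 11 in nodes, and 3 to 4 and 8 to 11 checkpoint genes. Without the library as a block 0 cytotoxic and 0 checkpoint genes rose in spleens, and 9 and 10 in nodes. In Cd8 T cells alone, which left 4 spleens and 2 nodes, 8 cytotoxic genes rose and 4 fell of 23 in spleens, and 9 rose and 3 fell of 23 in nodes, while 6 of 13 and 8 of 11 checkpoint genes rose. With thinned counts 4 cytotoxic genes rose and 5 fell of 20 in spleens and 6 rose and 4 fell of 23 in nodes, and 1 of 11 and 7 of 12 checkpoint genes rose.

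Gzma, a granule protease of killer cells, was 408 against 35.1 CPM in Eµ-TCL1 lymph node 1 and 291 against 8.62 and 388 against 31.6 CPM in Eµ-PRMT5/TCL1 lymph nodes 3 and 4, a log2 difference of 3.75 ± 0.243 (adjusted p = 2.12e-08). All 3 cycling values lay above all 3 negative values. In spleens it ran from 27.8 to 532 CPM (median 101) against 7.14 to 278 CPM (median 58.5), was higher in cycling cells in 6 of 7 spleens and lower in Eµ-PRMT5 spleen 4, and did not pass (1.04 ± 0.435, adjusted p = 0.0756). It passed in spleens without other-lineage cells (1.61, adjusted p = 0.001), but that fit held 6 spleens and no longer Eµ-PRMT5 spleen 4, where Gzma was lower.

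Gzmb, a granule protease that cuts target cell proteins, passed in nodes and not in spleens. It was 74.9 against 3.15, 140 against 14.4 and 475 against 59.9 CPM in the nodes (3.1 ± 0.247, adjusted p = 1.76e-07) and 4.96 to 2129 against 60.9 to 2839 CPM in spleens (0.47 ± 0.345, adjusted p = 0.299). In spleens it was higher in 5 of 7. Klrg1, a receptor of short-lived effector cells, rose in nodes by 3.77 on the log2 scale (21.8 against 1.18, 54.6 against 1.84 and 17.8 against 2.44 CPM) and in spleens by 1.03 (adjusted p = 0.0176, higher in 5 of 7).

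Havcr2, the checkpoint receptor TIM-3, rose by 3.62 in nodes and by 1.06 in spleens, where it was higher in 5 of 7. Ctla4, which blocks co-stimulation, rose by 2.33 and 0.85 and was higher in all 10 libraries. Pdcd1, the checkpoint receptor PD-1, rose in nodes (67.7 against 29.1, 108 against 21.1 and 204 against 59.3 CPM, a log2 difference of 1.53, adjusted p = 3.64e-05). In spleens it was higher in 4 of 7 (0.14, adjusted p = 0.701). Tox2, a relative of the exhaustion factor Tox, rose by 2.27 in nodes and by 1.14 in spleens, where it was higher in 5 of 7.

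Rgs16, which dampens G protein signals, was higher in cycling T cells of all 10 libraries. It was 62.8 against 8.4, 236 against 20.7 and 154 against 24.2 CPM in the nodes (2.75 ± 0.206, adjusted p = 9.45e-08). In spleens it ran from 9.74 to 700.4 CPM (median 91.9) against 2.75 to 351 CPM (median 83.8), a log2 difference of 0.72 ± 0.153 (adjusted p = 0.00221, and 0.0964 with thinned counts).

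The difference between tissues was itself tested, in a fit of all 10 libraries added after the values had been seen. The library was the block, and node and spleen of the same mouse were not paired, also where only the 3 mice were used. The p-values of this test therefore treat the 2 tissues of a mouse as independent. Of 9613 genes 1 passed (0.0104%), Rgs16, whose rise was 2.03 ± 0.279 larger in nodes than in spleens on the log2 scale (edgeR quasi-likelihood, adjusted p = 0.0142). In the 3 mice with at least 20 cycling T cells in both tissues its adjusted p was 0.00702. It did not pass without Eµ-TCL1 lymph node 1 or without Eµ-PRMT5/TCL1 lymph node 3, where 0 genes passed. At an unadjusted p under 0.05 there were 593 genes. For Gzma the difference was 2.71 (adjusted p = 0.335, and 0.00245 in the 3 mice), for Gzmb 2.67 (0.264, and 0.0452), for Klrg1 2.77 (0.220, and 0.183) and for Havcr2 2.54 (0.220, and 0.106). Rgs16 had passed in both tissues. For Gzma and Gzmb, which had passed in nodes and not in spleens, the difference between tissues passed in the 3 mice alone and not over the 10 libraries.

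**Figure D5:**
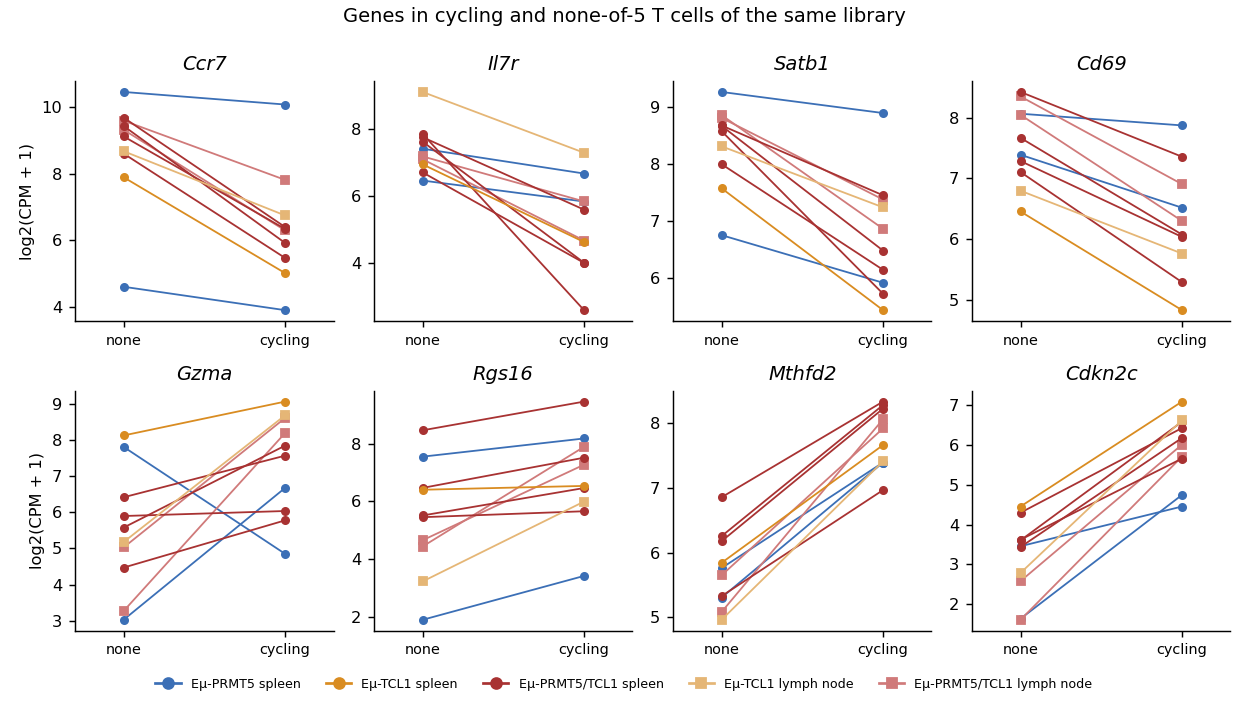
Levels of 8 genes (y axis, log2 of CPM plus 1) in negative ("none") and cycling T cells of the same library, joined by a line, with circles for spleens and squares for nodes. Ccr7, Il7r, Satb1 and Cd69 fall and Rgs16, Mthfd2 and Cdkn2c rise in all 10 libraries, while Gzma rises in 9 and falls in Eµ-PRMT5 spleen 4.

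Of activation and cytokine receptor genes 1 rose and 6 fell of 20 in spleens, where 17.7% of all genes rose and 18.4% fell, and 4 rose and 7 fell of 20 in nodes, where 13.6% rose and 12.2% fell. In Cd8 T cells alone 3 rose and 3 fell of 20 in spleens and 5 rose and 3 fell of 19 in nodes. Without other-lineage cells 2 rose and 5 fell in spleens and 4 rose and 7 fell in nodes. With 1 library left out 0 to 3 rose and 4 to 6 fell in spleens, and 2 to 7 rose and 3 to 8 fell in nodes, and without the library as a block 0 rose and 2 fell in spleens, and 3 rose and 5 fell in nodes. Cd69, an early activation antigen that holds cells in tissue, fell by 1.3 in spleens and 1.77 in nodes on the log2 scale and was lower in all 10 libraries. Il12rb2, a chain of the IL-12 receptor, fell by 1.62 (lower in 6 of 7 spleens) and 1.64. Tnfrsf9 (4-1BB), a co-stimulatory receptor, rose by 1.90 in nodes (adjusted p = 7.96e-06) and differed by 0.43 in spleens (adjusted p = 0.283).

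Of regulatory T cell genes 3 rose and 1 fell of 11 in spleens, where 17.7% of all genes rose and 18.4% fell. In nodes 4 rose and 0 fell of 12, where 13.6% of all genes rose and 12.2% fell. Without other-lineage cells 1 of 9 rose in spleens and 4 of 11 in nodes, with 1 library left out 1 to 4 and 2 to 5, and without the library as a block 0 and 3. Besides Ctla4, the co-stimulatory receptor Tnfrsf4 (OX40) rose by 1.60 in nodes (adjusted p = 0.00149), at 352 against 48.1 and 341 against 82.4 CPM in Eµ-PRMT5/TCL1 lymph nodes 3 and 4 but 43.5 against 43.8 CPM in Eµ-TCL1 lymph node 1, and differed by 0.63 in spleens (adjusted p = 0.0923), and the cytokine subunit Ebi3 rose by 1.24 in spleens (adjusted p = 0.0482, higher in 6 of 7). Of follicular helper genes 1 of 8 rose in spleens, the helper cytokine Il21 (3.02, adjusted p = 0.00497, at 0 to 14.9 CPM in cycling T cells), and 4 of 7 rose in nodes, among them Pdcd1 and the factor Maf (1.56, adjusted p = 0.00141). Maf differed by −0.07 in spleens (adjusted p = 0.894). With 1 library left out 0 to 2 follicular helper genes rose in spleens and 3 to 5 in nodes, and without other-lineage cells 1 of 7 and 4 of 7.

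Of homing receptors 6 of 12 fell and none rose in spleens, where 18.4% of all genes fell and 17.7% rose. In nodes 4 rose and 4 fell of 12, where 13.6% of all genes rose and 12.2% fell. With 1 library left out 3 to 7 fell in spleens and 1 to 5 in nodes, while 0 to 2 and 3 to 4 rose. Without other-lineage cells 2 rose and 5 fell in spleens and 4 rose and 5 fell in nodes, and without the library as a block 1 fell in spleens and 3 rose and 2 fell in nodes. Cxcr4, which holds cells at CXCL12 sources, fell by 0.86 and 0.96 on the log2 scale. Itga4, a chain of the integrin for inflamed vessels, rose by 2.16 in nodes (307 against 69.6, 133 against 13.2 and 184 against 47.3 CPM) and differed by 0.36 in spleens (adjusted p = 0.192). Few gamma delta and innate-like genes were abundant enough to test, and of those 0 rose and 1 fell of 3 in spleens and of 4 in nodes. Leaving out other-lineage cells, 0 rose and 1 fell of 3 in each tissue. Tcrg-C1 and Tcrg-C4 differed by 2.36 (adjusted p = 0.252) and 2.60 (adjusted p = 0.112) in nodes.

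Metabolic genes rose in part of each list and none fell, where 17.7% of all genes rose in spleens and 13.6% in nodes. Of 15 glycolysis genes tested 8 rose in spleens (median log2 difference 0.69) and 7 in nodes (0.53). Tpi1 and Pkm, enzymes of glycolysis, rose by 1.46 and 0.79 in spleens and 1.98 and 1.23 in nodes, and the lactate exporter Slc16a3 by 0.89 (higher in 4 of 7 spleens) and 1.99. Without other-lineage cells 8 of 14 and 7 of 15 rose, with thinned counts 6 of 14 in each tissue, and without the library as a block 2 rose in spleens and 7 in nodes. Of 13 oxidative phosphorylation genes 8 rose in spleens (0.32) and 7 in nodes (0.41). These counts were 8 and 6 without other-lineage cells, 3 and 1 with thinned counts, 0 and 3 without the library as a block, and 5 to 9 and 1 to 9 with 1 library left out. Sdhb, Cox5a and Ndufb7, subunits of the respiratory complexes, rose by 0.47 to 0.59 in spleens and 0.61 to 0.70 in nodes.

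Of 12 genes of purine, pyrimidine and one-carbon synthesis 7 rose in spleens (0.49) and 6 in nodes (0.83), where 17.7% and 13.6% of all genes rose. Without other-lineage cells 8 and 7 of 12 rose, with thinned counts 2 of 7 and 2 of 11, in Cd8 T cells alone 3 and 4 of 12, without the library as a block 4 and 6, and with 1 library left out 5 to 7 and 2 to 8. Mthfd2, which makes one-carbon units in mitochondria, ran from 124 to 321 CPM (median 201) in cycling and from 38.5 to 115 CPM (median 56.4) in negative T cells of spleens, with no overlap. In nodes it was 169 against 30.2, 266 against 32.9 and 241 against 49.2 CPM. Its log2 differences were 1.75 ± 0.11 (adjusted p = 1.1e-08) and 2.31 ± 0.176 (adjusted p = 1.14e-07). Shmt1, of the same pathway, rose by 1.38 and 1.86, and Ctps, which makes CTP, by 1.31 and 1.28.

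The cyclin, kinase and inhibitor list is close to the rule and held members that moved each way. Of 17 tested in spleens 9 were higher and 3 lower, where 17.7% of all genes rose and 18.4% fell, and of 18 in nodes 8 and 2, where 13.6% rose and 12.2% fell. Without other-lineage cells 10 were higher and 2 lower in spleens, and 9 and 2 in nodes. Cdk2, the kinase of S phase entry, was higher by 2.24 and 2.99. The inhibitors Cdkn2a and Cdkn2c, which block entry into the cycle, were higher too, by 2.67 and 4.75 and by 2.60 and 3.79. Cdkn2c was 96.7 against 5.90, 51.0 against 2.06 and 63.1 against 5.00 CPM in nodes and 20.9 to 134 against 2.12 to 20.9 CPM in spleens, and was higher in every library.

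Of interferon-stimulated genes 0 rose and 2 fell of 14 in spleens, where 17.7% of all genes rose and 18.4% fell. In nodes 4 rose and 1 fell of 13, where 13.6% of all genes rose and 12.2% fell. Without other-lineage cells 1 rose and 1 fell in spleens and 6 rose and 1 fell in nodes. With 1 library left out 0 to 1 rose and 0 to 3 fell in spleens, and 2 to 5 rose and 0 to 5 fell in nodes, and with thinned counts 2 rose and 1 fell in nodes. Ly6a (Sca-1) rose by 1.13 in nodes (adjusted p = 4.87e-05) and differed by 0.34 in spleens (adjusted p = 0.0906), and Ly6c2 fell by 1.17 in nodes (adjusted p = 0.00356). Ly6c2 was lower in Eµ-PRMT5/TCL1 lymph nodes 3 and 4 (409 against 893 and 199 against 640 CPM), higher in Eµ-TCL1 lymph node 1 (404 against 345 CPM), and higher in 3 of 7 spleens (−0.55, adjusted p = 0.206). Mouse Prmt5, which is not the human transgene, was 59.1 and 25.7 CPM in cycling T cells of Eµ-PRMT5 spleens 4 and 5, 26.4 CPM in Eµ-TCL1 spleen 1, and 74.4, 20.2, 33.2 and 38.7 CPM in Eµ-PRMT5/TCL1 spleens 1 to 4. In nodes it was 53.2, 28.5 and 27.5 CPM. It did not pass in spleens (−0.28, adjusted p = 0.468) or in nodes (−0.33, adjusted p = 0.284), and its partner Riok1 fell by 0.42 (adjusted p = 0.0272, lower in 6 of 7 spleens) and 0.79 (adjusted p = 0.0154, lower in 2 of 3 nodes). In spleens Riok1 did not pass without the library as a block, nor with any of Eµ-PRMT5/TCL1 spleens 2 to 4 or the Eµ-TCL1 spleen left out, and in nodes it did not pass with thinned counts, by DESeq2, or without Eµ-PRMT5/TCL1 lymph node 3 or 4.

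Levels of the class genes followed the cell counts in nodes. Cd4 was 104 against 21.6, 54.6 against 7.30 and 61.4 against 30.6 CPM (1.74 ± 0.29, adjusted p = 0.000354). In spleens it was higher in 4 of 7 (0.12, adjusted p = 0.780). Cd8b1 fell by 0.84 in spleens (adjusted p = 0.00534) and 0.99 in nodes (adjusted p = 6.62e-05), and Cd8a by 0.58 (adjusted p = 0.0484, lower in 5 of 7) and 0.81 (adjusted p = 0.012, lower in 2 of 3). Without other-lineage cells Cd8a in spleens had an adjusted p of 0.0909.

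Few libraries held enough cycling T cells to compare their genes between genotypes: 4 spleens and 2 nodes of Eµ-PRMT5/TCL1 mice, 1 spleen and 1 node of an Eµ-TCL1 mouse, and 2 spleens of Eµ-PRMT5 mice. For Eµ-PRMT5/TCL1 against Eµ-PRMT5 spleens, counts of this size were simulated with the same spread between libraries for every gene (a dispersion of 0.05). There the test found 91 of 100 genes changed by 2 on the log2 scale and 17 of 100 changed by 1. Real genes can spread more, and the changed genes were drawn from the more abundant genes tested, so the rarer ones were not covered. In that contrast Cd4 differed by 2.65 ± 0.589 (SE) and Pdcd1 by 2.62 ± 0.919, and neither passed, so changes of this size can be missed. Eµ-PRMT5 against Eµ-TCL1 spleens gave 0 of 9456 genes (edgeR quasi-likelihood; 280 at an unadjusted p under 0.05, and 6 by DESeq2). Eµ-PRMT5/TCL1 against Eµ-TCL1 spleens gave 0 as well (106 at an unadjusted p under 0.05, and 0 by DESeq2). Both rest on Eµ-TCL1 spleen 1 alone, which is assumed to vary like the other groups, so their counts of 0 do not show that these genotypes were alike.

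Eµ-PRMT5/TCL1 against Eµ-PRMT5 spleens gave 1 of 9456 (0.0106%; 5 by DESeq2), the receptor gene Trbv19. It was 79.4, 125, 130 and 216 CPM in Eµ-PRMT5/TCL1 spleens 1 to 4 and 0 and 0.696 CPM in Eµ-PRMT5 spleens 4 and 5 (adjusted p = 0.0418), and 0 genes passed without either Eµ-PRMT5 spleen or without Eµ-PRMT5/TCL1 spleen 2, 3 or 4. In negative T cells the same spleens had 76.5, 60.3, 74.7 and 118 CPM against 86.5 and 0.386 CPM, so that Eµ-PRMT5 spleen 4 lacked Trbv19 in its 20 cycling cells and not in its other T cells.

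Eµ-PRMT5/TCL1 lymph nodes 3 and 4 against Eµ-TCL1 lymph node 1 gave 9 of 7335 genes (0.123%; 45 by DESeq2), 3 higher (0.0409%) and 6 lower (0.0818%). The Eµ-TCL1 side is 1 library, assumed to vary like the other 2, so the values below describe these 3 nodes, and mouse and genotype cannot be told apart. Trbv17 was at 1121 CPM in Eµ-TCL1 lymph node 1 and at a mean of 10.1 CPM in the other 2 nodes, and Trav4-3 at 268 and 17.6 CPM, in the mouse whose leading gene was Trbv17. Trbv13-1 was at 0 and at a mean of 98.3 CPM. The co-stimulatory receptor Tnfrsf4 was higher by 3.13 (352 and 341 against 43.5 CPM) and the polyamine enzyme Odc1 by 1.92. Tgfbi, a matrix protein of macrophages, was lower by −6.95 (2.37 and 0 against 213 CPM) and the class II gene H2-Aa by −3.87, and 2310001H17Rik by −3.03. Of the 41 cycling cells of that node 2 were above the limit for other lineages. The differences of Tgfbi and H2-Aa without those cells are not given here. Other settings gave from 45 to 394 genes, so the number called in this comparison is not settled by these data.

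In 3 mice with at least 20 cycling T cells in both tissues, nodes against spleens gave 0 of 7944 genes (623 at an unadjusted p under 0.05, and 14 by DESeq2). Without the Eµ-TCL1 mouse it was 341, and without the mouse of Eµ-PRMT5/TCL1 lymph node 3 it was 7. None of Cd4, Cd8a, Gzmb, Pdcd1 and Prmt5 passed in any of these 5 comparisons, and Foxp3 was too low to be tested.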

How the data were processed

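The authors prepared droplet libraries (10x Genomics 3′ chemistry) and deposited raw UMI counts per gene and barcode, for 31053 mouse genes. The labels name Cell Ranger 2.0.1, Seurat 2.2.1 and the build GRCm38, while the deposited matrices carry the mark of Cell Ranger 3.1.0. Reads of the human transgenes need not be counted against a mouse reference. No cell annotation of the authors was used, and filters, thinning to 1500 UMIs and cell calls were computed here. The members and lists were chosen with earlier results of these data known.

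UMIs were summed per library and state (at least 20 cycling T cells) and tested with edgeR 4.0.16 (R 4.3.3) by the quasi-likelihood test with TMM scaling, an expression filter and the library as a block for cycling against negative T cells, without a block between genotypes, with Benjamini-Hochberg adjustment over all genes. The block pairs states of the same library. DESeq2 1.42.0, other scalings and filters, thinned counts, Cd8 cells alone and left-out libraries were alternatives. Shares were compared by exact two-sided permutation or sign-flip tests over mice. Intervals are Wilson 95% and, like the limit of 3 counts for a share of 0, cover counting error only. Named genes were the 8 largest rises and falls called in both tissues with at least 50 CPM, the 3 largest changes of each list, the 4 most abundant members of each cell cycle list, the class and rule genes, Prmt5, and up to 5 called genes in each direction between groups. In counts simulated with 1 spread for every gene, which real genes can exceed, the test found 88 of 100 genes changed by 1 on the log2 scale in spleens and 32 of 100 in nodes. These changed genes were drawn from the more abundant genes tested.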

Additional observations from a re-analysis of the deposited data

Results flagged for a closer look

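Of 13 sets of 4 or 5 libraries examined for a library far from the others, 5 held one. The sets are not independent, since the T cell shares enter both thinned and with all UMIs, and the 5 came from 2 libraries. The rule also assumes normally spread values, which shares near 0 need not be. The 5 can therefore not be set against the 1 in 20 that chance gives in independent sets. After thinning, the share of cycling T cells was 6.72% in Eµ-PRMT5 spleen 4 and at most 1.66% in the other spleens of its group, and 2.73% in Eµ-TCL1 spleen 1, where the others ran from 0.252% to 0.434%. With all UMIs the same 2 libraries stood apart, at 16.8% (others 0.221% to 3.24%) and 4.60% (others 0.381% to 0.992%). The share of cycling B cells reached 23.7% in Eµ-PRMT5 spleen 4, where the other 4 spleens of the group ran from 0.106% to 0.606%. That spleen held 119 T cells and the highest level of the 5 genes in free RNA (798 CPM), and the part of either in its share was not tested.

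Rgs16 rose by 2.03 more in nodes than in spleens on the log2 scale, by the test of that difference itself, which did not pair the tissues of a mouse.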

How the results depend on the processing

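Between-group shares kept their direction in every alternative except Eµ-PRMT5 minus Eµ-TCL1 spleens, which was −0.312 points without Eµ-PRMT5 spleen 4 (leave-one-out range −0.312 to 1.51). Between genotypes equal replicate numbers mark different mice, and pairing by them as a replicate block gave 0.953 (exact sign-flip p = 1), 4.55 and 3.59 points (both p = 0.125) for the 3 spleen contrasts and 0.849 (p = 0.25) for nodes. The node difference Cd8 minus Cd4 lost significance with at least 3 genes (−5.24), without Scrublet doublets (−5.86) and without the top scores (−6.08). It was −2.29 when thinned, over 4 nodes, and −7.46 to −3.92 with any node left out, where 4 or 5 nodes cannot pass.

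Genes called between cycling and negative T cells were 3405 in spleens and 2702 in nodes, and 1215 and 1135 when thinned, 2118 and 1727 in Cd8 T cells alone, 1120 and 2264 with no replicate block for the library, and 2519 to 3489 and 1058 to 3495 with a library left out. Eµ-PRMT5 against Eµ-TCL1 spleens gave 6 by DESeq2 and 25 without the filter. Eµ-PRMT5/TCL1 against Eµ-TCL1 spleens gave 7 without the filter, 1 without other-lineage cells (also with at least 10 cells) and 2 without immature cells as well. Against Eµ-PRMT5 spleens there were 5 by DESeq2, 64 without the filter, 2 without other-lineage cells, 9 without immature cells as well, 0 with at least 10 cells (with or without other-lineage cells) and 0 to 1 with a library left out. The node contrast gave 45 by DESeq2, 368 with its size factors, 381 without the filter, 79 with at least 10 cells (117 without other-lineage cells), 394 and 282 without doublets by threshold and by top score, and 385 without other-lineage cells, with or without immature ones. Nodes against spleens gave 14 by DESeq2, 120 without the filter and 0 to 341 with a library left out. The tissue difference of the cycling effect gave 6 in the 3 mice with at least 20 cycling T cells in both tissues, 18 by DESeq2, 2 thinned, 2 in Cd8 cells and 0 to 2 with a library left out. The causes were not tested. A replicate block between genotypes could not be fitted for genes, with too few libraries, and leaving out a node left no test for the node contrasts of genes and Cd8 shares.

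In spleens, genes that had not passed changed sign: Pdcd1 (−0.0692 thinned, −0.120 with no replicate block), Maf (0.668 in Cd8 cells, 0.279 without other-lineage cells, 0.495 without immature cells as well, −0.364 to 0.130 with a library left out), Prmt5 (0.0302 by DESeq2, −0.429 to 0.0486 with a library left out) and Cd4 (−0.0338 thinned, −0.235 with no replicate block, −0.0104 to 0.2996 with a library left out). In nodes Cd8a was at 0.133 in Cd8 cells alone. Few cycling cells limit the group contrasts: 10 libraries held at least 20.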
